A study of Gallus gallus with 24 samples.

Results

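The brush border genes described here encode motors, actin bundlers, linkers and adhesion proteins of the intestinal microvillus. They were taken by name from a list of 10 symbols, MYO7B, MYO1A, VIL1, USH1C, CDHR2, CDHR5, ESPN, EZR, PLS1 and PDZK1, of which 8 are among the 15618 genes of the expression table. CDHR5 and ESPN were not analysed here. All 8 genes present passed the filter on low values and were tested among 13279 genes. Expression was measured by RNA sequencing of jejunum (small intestine after the duodenum) from 24 chickens of 2 lines. Selection for high (HAS) or low (LAS) antibody titres against sheep red blood cells, SRBC, made these lines. HASI and LASI received SRBC by injection and HASN and LASN did not, with 6 birds and 6 libraries a group, and the label of every sample gives day 5 after injection. Age, sex, injection route and dose are not given in the sources used here. Every pair of comparisons below that names the same group uses the same libraries of that group.

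Enterocytes absorb nutrients through microvilli, finger-like membrane protrusions that are each held up by a core of parallel actin filaments. Villin (VIL1), plastin-1 (PLS1, also called fimbrin) and espin bundle the core, and ezrin (EZR) and the myosin MYO1A tie it to the membrane. In mammals the tips of neighbouring microvilli are linked by the protocadherins CDHR2 and CDHR5, which are held by a complex of the scaffold harmonin (USH1C), the motor MYO7B and the adaptors ANKS4B and CALML4. PDZK1 is a PDZ scaffold that holds transporters in the apical membrane.

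Values are transcript abundances in TPM, shares of a library's transcripts corrected for their length, with the same total in each library. Because they are shares, a gene can fall when others rise, and because the tissue is bulk, fewer enterocytes and less RNA of a gene per enterocyte cannot be told apart. Differences are given as log2 fold changes of log2(TPM + 1), which understates the change of genes at a few TPM. They come from limma's two-sided test fitted over all tested genes, with Benjamini-Hochberg adjustment, and called means an adjusted p under 0.05.

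Libraries stood apart in ways that touch these genes. For each library log2(TPM + 1) was regressed on the log2 of gene span, introns included, and the resulting span slope ranged from -0.27 to 0.02 over the libraries, and a lower slope means that long genes were less abundant relative to short ones. It ran from -0.12 to 0.02 in LASN, from -0.23 to -0.05 in LASI, from -0.21 to -0.09 in HASI and from -0.27 to 0.02 in HASN. The 13 mitochondrially encoded genes took 9.54% to 18.2% of TPM in LASN, 15.8% to 26.7% in LASI, 21.4% to 38.0% in HASI and up to 23.4% in HASN, where the median was 17.7%. The mean log2(TPM + 1) of 50 genes of the female-specific W chromosome ran from 0.14 to 2.96 in HASN and from 0.21 to 2.54 in HASI. In LASN it ran from 0.28 to 3.14 and in LASI from 0.17 to 2.76, so every group held low and high levels. Sex was not part of the reported fit. LASN replicate 6 stood apart in FABP6 and SLC10A2, markers of the lower small intestine. It held FABP6, the bile acid binding protein of ileal enterocytes, at 5930 TPM against at most 1027 in the other 23 libraries, and the ileal bile acid transporter gene SLC10A2 at 135 TPM against at most 14.2. Of 4 ileal enterocyte markers listed, 3 were in the table. By the sum of the 3, the other was not at its highest in LASN replicate 6. Its GATA4, a transcription factor gene of proximal rather than ileal epithelium in mice, was at 11.2 TPM against a median of 34.5 in the others, and 1 other library, LASI replicate 4, was lower still. Its FABP2, SLC5A1, SLC15A1 and APOA1, general enterocyte genes, lay within the range of the others, APOA1 at 11414 TPM near their lowest of 10759. Its ANPEP, another such gene, was at 3146 TPM, above their highest of 2902. Of the 27 enterocyte markers listed, 23 were in the table and summed to 37103 to 83271 TPM per library.

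The 8 genes were abundant but not equally so. VIL1 led with a mean of 1099.5 TPM over the 24 libraries, followed by EZR at 432, MYO1A at 403, CDHR2 at 387, PLS1 at 383, PDZK1 at 309, USH1C at 120 and MYO7B at 35.6 TPM. VIL1 lay above each of the other 7 genes in every library, from its lowest level of 818 TPM against a highest level of 675 TPM for EZR. EZR, MYO1A, CDHR2, PLS1 and PDZK1 had overlapping ranges over the libraries, so their order does not exceed their spread. Together the 8 genes summed to a median of 3298 TPM in HASN (2835 to 3987), 3141 in HASI (2130 to 3605), 3429 in LASN (3146 to 4012) and 2815 in LASI (2304 to 4023).

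**Figure D1:**
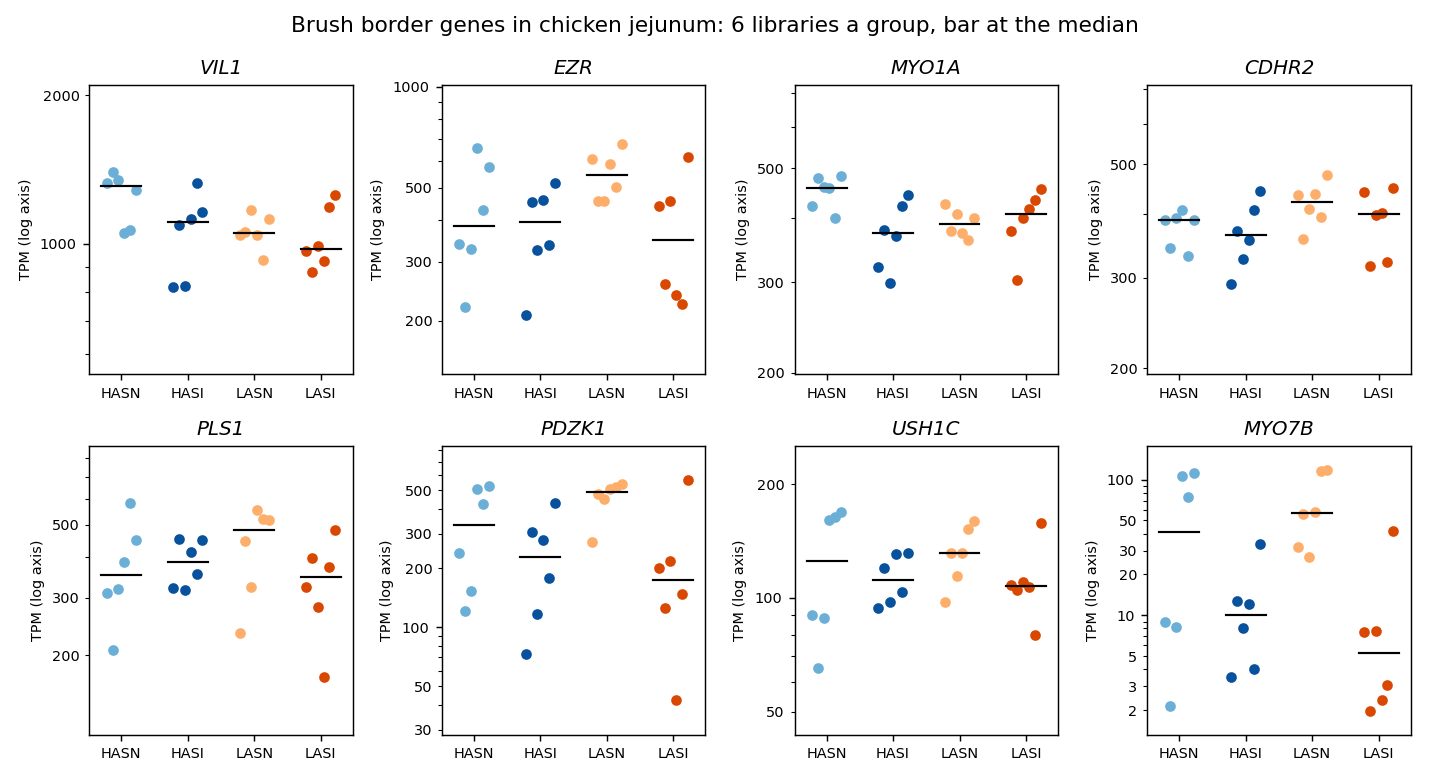
TPM of the 8 brush border genes (log axis, a panel per gene) in the 6 libraries of each group, with points in replicate order and a bar at the group median. VIL1, MYO1A and CDHR2 stayed within 1.71-fold over all 24 libraries, whereas MYO7B ranged from 1.97 to 119 TPM.

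The genes also differed in how much they varied. MYO7B varied 60.1-fold between its lowest library, LASI replicate 2 at 1.97 TPM, and its highest, LASN replicate 6 at 119 TPM. PDZK1 varied 13.3-fold, PLS1 3.40-fold, EZR 3.24-fold and USH1C 2.59-fold. VIL1 varied 1.71-fold, CDHR2 1.63-fold and MYO1A 1.62-fold. On the log2(TPM + 1) scale the spread within groups was an SD of 1.49 for MYO7B, which 0.505% of tested genes exceeded, and 0.91 for PDZK1, which 7.39% exceeded. At the other end MYO1A had an SD of 0.17, CDHR2 of 0.18 and VIL1 of 0.20, and 96.5%, 94.9% and 91.0% of tested genes had a larger one. The median SD of all tested genes was 0.40.

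MYO7B, the motor of the tip adhesion complex (ENSGALG00000001936, galGal6 chromosome 9, 1494408 to 1519920, plus strand), had its lowest, median and highest library at 26.7, 56.9 and 119 TPM in LASN and at 1.97, 5.26 and 41.8 TPM in LASI. Of the LASI libraries, 5 lay at 7.71 TPM or less, below every LASN library, and replicate 6 at 41.8 TPM lay within the LASN range. In HASN the lowest, median and highest were 2.15, 41.4 and 111 TPM, and in HASI they were 3.48, 10.1 and 33.4 TPM. HASN fell into 2 sets with a gap between them, replicates 1 to 3 at 8.89, 2.15 and 8.15 TPM, and replicates 4 to 6 at 106, 73.9 and 111 TPM. The span slopes of the former were -0.21, -0.27 and -0.23, those of the latter 0.01, -0.02 and 0.02. All 6 HASI libraries lay between these sets or within the lower of them.

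USH1C, the harmonin scaffold that binds MYO7B in mammals (ENSGALG00000006192, chromosome 5, 12148432 to 12193954, minus strand), followed a similar order at a smaller range. Its lowest, median and highest library was at 97.8, 132 and 160 TPM in LASN and at 79.8, 107 and 158 TPM in LASI. In HASN these were 65.1, 125 and 169 TPM and in HASI 94.2, 112 and 132 TPM. All 4 groups overlapped. A gene model without a symbol on the same strand, ENSGALG00000054690, lies inside that of USH1C and was at 5.05 TPM or less in every library. CDHR2, the protocadherin of the tip links (ENSGALG00000003285, chromosome 13, 11074501 to 11082223, minus strand), had medians of 390 TPM (HASN), 363 (HASI), 423 (LASN) and 399.8 (LASI), and all libraries lay from 292 to 476 TPM. The 3 genes of the tip complex among the 8 thus ranged from nearly constant to the most variable of the 8.

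Of the bundlers, VIL1 (ENSGALG00000037286, chromosome 7, 22534108 to 22539376, minus strand) had its lowest, median and highest library at 1052, 1307 and 1398 TPM in HASN and at 818, 1109 and 1326 TPM in HASI. In LASN these were 929, 1050 and 1170 TPM and in LASI 878, 979 and 1255 TPM. PLS1 (ENSGALG00000002647, chromosome 9, 10648483 to 10686787, plus strand) had medians of 351 TPM (HASN), 385 (HASI), 483 (LASN) and 347 (LASI), with libraries from 171 to 582 TPM. Every pair of groups overlapped in both bundlers.

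EZR (ENSGALG00000013742, chromosome 3, 52201415 to 52238151, minus strand), which links actin to the membrane, was tightest in LASN, where the lowest, median and highest library was at 455, 545 and 675 TPM. In LASI these were 225, 349 and 618 TPM, in HASN 220, 383 and 657 TPM and in HASI 208, 396 and 515 TPM. MYO1A (ENSGALG00000032598, chromosome 33, 6846579 to 6855524, plus strand), the membrane-bound motor along the core, had medians of 458 TPM (HASN), 373 (HASI), 389 (LASN) and 408 (LASI), and all libraries lay from 298 to 484 TPM. Both genes overlapped between every pair of groups.

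PDZK1 (ENSGALG00000015492, chromosome 1, 93917559 to 93930207, minus strand), the transporter scaffold, had its lowest, median and highest library at 271, 492 and 539 TPM in LASN and at 42.3, 174 and 563 TPM in LASI. In HASN these were 122, 331 and 528 TPM and in HASI 72.6, 229 and 430 TPM. As for MYO7B, LASI replicate 6 was the highest library of its group, here above every LASN library, and the other 5 LASI libraries lay at 218 TPM or less, below every LASN library. The model of PDZK1 shares 5662 bases with GPR89B on the opposite strand, and the strandedness of the counting is not given in the sources used here. GPR89B itself was at a log2 fold change of 0.09 in LASI against LASN and was not called (adjusted p = 0.624).

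Comparing LASI with LASN asks how the LAS line differed after the antigen. MYO7B and PDZK1 were lower in injected birds and no brush border gene was higher, so 0 of 8 were called higher and 2 of 8 lower. Over all tested genes 28.9% were called lower and 2.18% higher, so 2 in 8 lies near the background and is not a result about these genes as a set. That background rested on a few libraries too, since 3844 genes were called lower and 289 higher, but 1248 to 1369 lower without LASN replicate 5 or 6 or LASI replicate 2, 4 or 5, and 1593 were higher and 2578 lower after median-ratio rescaling. In 0 of 8 genes the LASI and LASN libraries failed to overlap, against 4.40% of all genes not overlapping and lower and 0.444% higher. MYO7B, at 10.7 ± 15.4 TPM in LASI and 67.8 ± 40.1 in LASN (SD, n = 6), fell by 3.06 on the log2 scale (SE 0.80, limma adjusted p = 0.0158, 95% interval -4.72 to -1.39), or 8.33-fold. PDZK1, at 216 ± 181 TPM against 461 ± 98.0, fell by 1.45 (SE 0.49, adjusted p = 0.0327, 95% interval -2.47 to -0.43). EZR lay at -0.64 and was not called (adjusted p = 0.0721, 95% interval -1.21 to -0.08). PLS1 was at -0.37 and USH1C at -0.25, and neither passed (adjusted p = 0.252 and 0.357).

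The 3 least variable genes had narrow intervals that held no change in LAS on the TPM scale. VIL1 had a log2 fold change of -0.05 (95% interval -0.31 to 0.21), MYO1A of 0.01 (-0.21 to 0.24) and CDHR2 of -0.12 (-0.35 to 0.12). All tested genes had a median of -0.33 and the 8 genes one of -0.31, with 4 of the 8 below the median of all genes. Median-ratio rescaling, which moved the median of all genes to 0.03, left MYO7B lower at -2.67 and PDZK1 at -1.02 and put MYO1A at 0.45 (adjusted p = 0.0517), VIL1 at 0.39, CDHR2 at 0.32, PLS1 at 0.065 and USH1C at 0.18, none of these 5 called.

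The MYO7B and PDZK1 differences were smaller with the span slope in the fit, and the call of PDZK1 ended when any 1 of 7 of the 12 libraries compared was left out. With each library's span slope as a covariate the log2 fold change of MYO7B was -0.97 (adjusted p = 0.0106) and that of PDZK1 was -0.40 (adjusted p = 0.582). Without LASN replicate 6, the library high in FABP6 and SLC10A2, MYO7B was at -2.86 (adjusted p = 0.0434) and PDZK1 at -1.40 (adjusted p = 0.0684). The call of PDZK1 also ended without LASI replicate 2 (-1.37, adjusted p = 0.0700), LASI replicate 5 (-1.42, 0.0657), LASN replicate 2 (-1.43, 0.0549), LASN replicate 4 (-1.42, 0.0548) or LASN replicate 5 (-1.41, 0.0659), where its fold stayed close to -1.45. Without LASI replicate 4 it was -1.06 (adjusted p = 0.0951). EZR was called without LASI replicate 6, at -0.81 (adjusted p = 0.0197), and when only LASI and LASN were fitted, at -0.64 (adjusted p = 0.0480). After median-ratio rescaling EZR was at -0.21 and not called (adjusted p = 0.358). Over the alternatives other than single left-out libraries EZR ran from -0.72 to -0.06. Without LASI replicates 4 and 6 together, chosen after the data were seen, both MYO7B (-3.44) and PDZK1 (-1.41) kept their call. The mean span slope was -0.04 in LASN and -0.17 in LASI, and it is computed from the same values. The refit with it therefore cannot tell the slope and the injection apart. The part of the span slope, the mitochondrially encoded share and the tissue region in the differences between LASI and LASN was not tested.

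**Figure D2:**
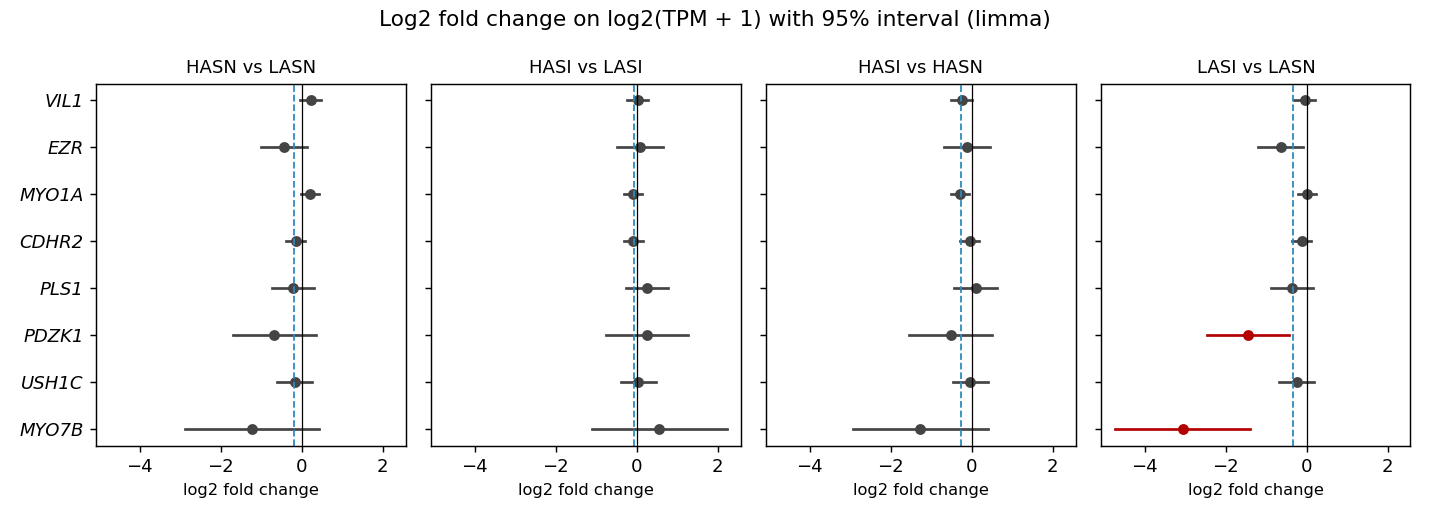
Log2 fold change of each brush border gene on the log2(TPM + 1) scale with its 95% interval from limma, a panel per comparison. Red marks a call at an adjusted p under 0.05, and the dashed line is the median of all tested genes, at -0.19, -0.06, -0.26 and -0.33 from left to right. MYO7B and PDZK1 are called between LASI and LASN only, and MYO7B has the widest interval in every panel.

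Comparing HASI with HASN asks the same of the HAS line. Of the 8 genes, limma called 0 higher and 0 lower, where 0.241% of all genes were called higher and 1.75% lower. Only 1 of the 8, MYO1A, had an unadjusted p under 0.05, as did 2197 of all 13279 genes. MYO1A averaged 372 ± 56.2 TPM in HASI against 450.2 ± 33.0 for HASN (SD, n = 6), which is -0.28 on the log2 scale (SE 0.11, adjusted p = 0.206, 95% interval -0.51 to -0.06). The median of all tested genes was -0.26, and after median-ratio rescaling MYO1A was at -0.0015 (adjusted p = 0.998). VIL1 lay at -0.25 (adjusted p = 0.318, 95% interval -0.51 to 0.01) and MYO7B at -1.27 (adjusted p = 0.384, 95% interval -2.94 to 0.39). PDZK1 was at -0.52, EZR at -0.11, CDHR2 at -0.05, USH1C at -0.04 and PLS1 at 0.09, with adjusted p-values from 0.515 to 0.914. The groups overlapped in all 8, where 1.60% of all genes did not overlap and were lower and 0.324% higher.

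The injection effects of the lines were compared directly by their interaction. No gene of the 8 was called, with 0 of 8 also at an unadjusted p under 0.05, and 0.00% of all 13279 genes were called in either direction, with 606 at an unadjusted p under 0.05. MYO7B had the highest estimate, 1.78 with a 95% interval from -0.57 to 4.14 (adjusted p = 0.750), so the fall in LAS was not shown to differ from the value in HAS. Averaged over both lines, injection went with a log2 fold change of -2.17 for MYO7B (adjusted p = 0.00889) and -0.99 for PDZK1 (adjusted p = 0.0300), 2 of 8 called lower against 38.8% of all genes, with 0 of 8 higher against 2.33%. This average uses the same libraries as the comparisons within lines and is no separate evidence. The call of PDZK1 in the average ended after either rescaling, with the slope covariate (-0.29, adjusted p = 0.459), and without HASI replicate 1 or 3, HASN replicate 4, 5 or 6 or LASI replicate 4 (adjusted p from 0.0534 to 0.0608). USH1C had an average of -0.14 that did not pass (adjusted p = 0.441) and turned to higher and called after median-ratio rescaling (0.21, adjusted p = 0.0263) and with the slope covariate (0.19, adjusted p = 0.0338). EZR, at -0.38 and not called (adjusted p = 0.114), was called without HASN replicate 2 (adjusted p = 0.0401) or LASI replicate 6 (0.0428). After median-ratio rescaling EZR was at -0.02 (adjusted p = 0.913) and with the slope covariate at 0.0076 (adjusted p = 0.977).

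Between the lines no brush border gene was called. In uninjected birds 0 of 8 genes passed limma's test between HASN and LASN, against 0.331% of all genes called higher and 0.843% lower. An unadjusted p under 0.05 was found for 0 of 8, and for 1558 of all 13279 genes. Their libraries overlapped in all 8 genes, where 0.392% of all genes did not overlap and were higher and 0.821% lower. The log2 fold changes of HASN against LASN ran from -1.23 for MYO7B (95% interval -2.90 to 0.43) and -0.67 for PDZK1 to 0.20 for MYO1A and 0.23 for VIL1 (95% interval -0.03 to 0.49), with adjusted p-values from 0.449 to 0.637. In injected birds 0 of 8 passed between HASI and LASI, against 0.158% of all genes called higher and 0.384% lower. At an unadjusted p under 0.05 were 0 of 8, and 993 of all genes. All 8 overlapped here too, where 0.233% of all genes did not overlap and were higher and 1.13% lower. There the log2 fold changes ran from -0.10 for MYO1A to 0.55 for MYO7B (95% interval -1.11 to 2.22). Averaged over injection the line difference lay between -0.34 for MYO7B and 0.12 for VIL1, with 0 of 8 called against 0.723% of all genes called higher and 1.88% lower. Here too 0 of 8 had an unadjusted p under 0.05, where 1651 of all genes did. For MYO1A and VIL1 the 95% intervals of the average line difference were -0.11 to 0.21 and -0.06 to 0.31, and for MYO7B the interval was -1.52 to 0.84.

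Across libraries, 5 of the genes moved with the span slope, where the median r of all tested genes was 0.652. The share of all genes that pass the same permutation test was not computed. With group means taken off, MYO7B followed the slope over the 24 libraries at a Pearson r of 0.972 and a Spearman rho of 0.929, both at a permutation p of 1e-05, which is as small as 100000 permutations within groups allow (5.33e-05 adjusted over 32 tests). USH1C had a Pearson r of 0.948 and a Spearman rho of 0.935 with the same permutation p. For EZR r was 0.813 and rho 0.812, for PDZK1 0.793 and 0.849, and for PLS1 0.719 and 0.731, with adjusted permutation p-values of 0.000503 or less. CDHR2 (r 0.324), MYO1A (0.06) and VIL1 (-0.17) did not pass, with adjusted permutation p-values of 0.111, 0.796 and 0.444 for r and 0.121, 0.843 and 0.418 for rho.

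Leaving out LASN replicate 6 and HASN replicate 6, the libraries farthest from the median slope, gave r of 0.968 for MYO7B, 0.937 for USH1C, 0.794 for EZR, 0.788 for PDZK1 and 0.707 for PLS1. Without HASN r was 0.955 for MYO7B and 0.888 for USH1C. Such a relation is common in these libraries. The median r of all tested genes with the slope was 0.652. Of them 2.49% exceeded MYO7B, 9.57% USH1C, 34.7% EZR, 37.3% PDZK1 and 44.9% PLS1. For CDHR2, MYO1A and VIL1 it was 67.2%, 76.6% and 83.3%. Slope and gene levels are computed from the same values, although the 8 genes were left out of the slope, so the p-values do not relate independent measures. The mitochondrially encoded share went the other way for 7 of the 8 genes by Pearson r, VIL1 not passing (-0.477, adjusted permutation p = 0.0793), and MYO1A and CDHR2 did not pass by Spearman rho (adjusted permutation p = 0.0957 and 0.104). This too is common in these libraries, where the median r of all tested genes with the share was -0.548, and 78.1% of them had a higher r than MYO7B. The same percentage was 79.6% for PDZK1, 75.1% for USH1C, 67.7% for EZR and 55.6% for MYO1A. It was 50.1% for CDHR2, 49.0% for PLS1 and 43.1% for VIL1. TPM has a fixed total, so a larger mitochondrially encoded share lowers the values of other genes by itself. The p-values for the share therefore do not relate independent measures either. The Pearson r was -0.702 for MYO7B and -0.707 for PDZK1 (adjusted permutation p = 0.000492 and 0.00124) and a Spearman rho of -0.850 and -0.804 (adjusted permutation p = 0.000107 and 0.000288). With HASI replicates 1 and 3, farthest from the median share, left out, these r were -0.798 and -0.600. USH1C was then at -0.755, EZR at -0.579 and PLS1 at -0.552. The r of MYO1A went from -0.595 to -0.355, that of CDHR2 from -0.549 to -0.314 and that of VIL1 from -0.477 to -0.061. For MYO1A, CDHR2 and VIL1 the relation thus rested largely on these libraries.

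**Figure D3:**
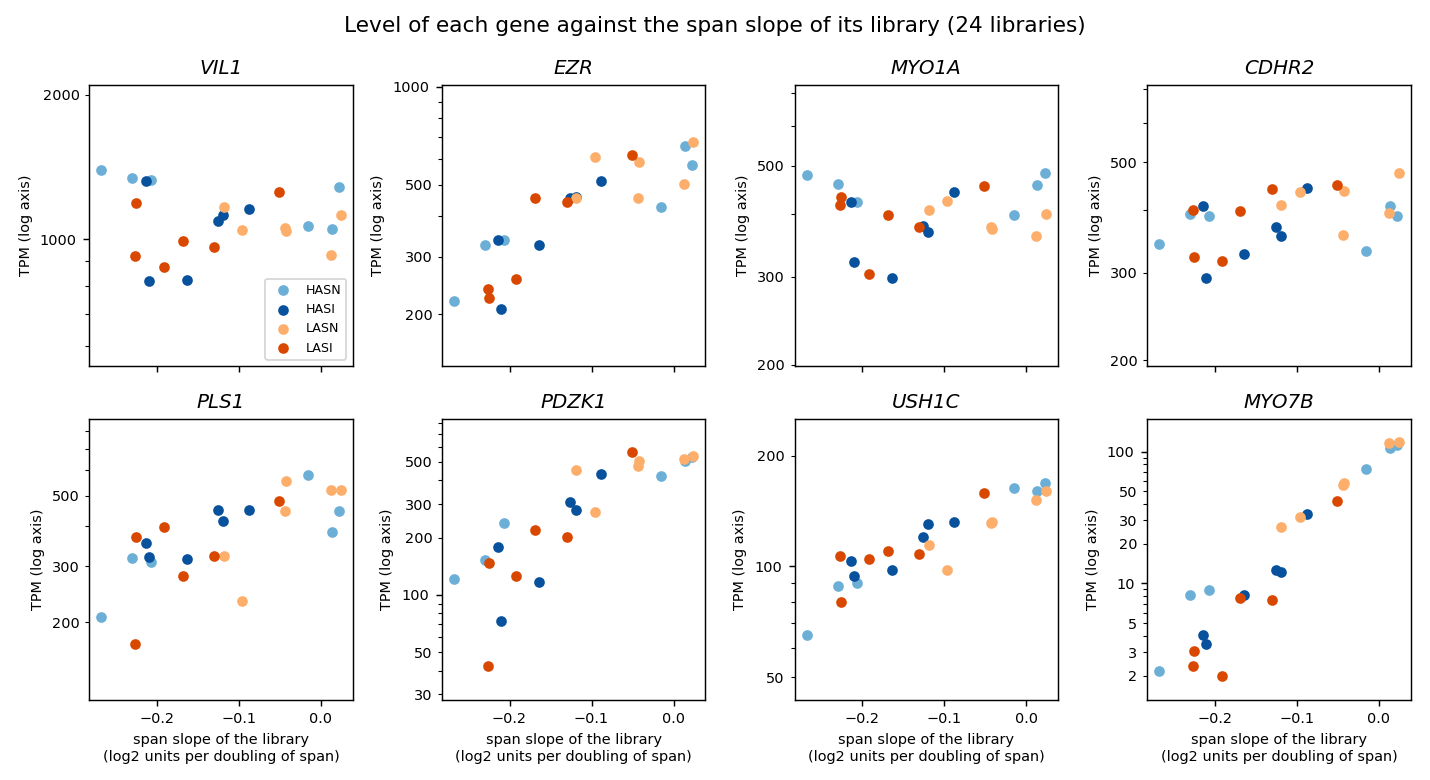
TPM of each brush border gene (log axis) against the span slope of its library, coloured by group, 24 libraries. MYO7B climbs along a narrow band, from 2.15 TPM at the lowest slope of -0.27 to 119 TPM at the highest of 0.02, and VIL1, MYO1A and CDHR2 show no such band.

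The genes that followed the slope have longer models, which is in part built in, as the slope is itself a regression on gene span. VIL1 spans 5.27 kb, CDHR2 7.72 kb and MYO1A 8.95 kb, and these are the 3 shortest models and the 3 with the smallest spread. PDZK1 spans 12.6 kb, MYO7B 25.5 kb, EZR 36.7 kb, PLS1 38.3 kb and USH1C 45.5 kb. Span did not order the spread among the longer ones, since USH1C has the longest model and an SD of 0.37, close to the median of all genes, while MYO7B with the largest SD lies between PDZK1 and EZR in span. These are 8 genes of the same libraries and give a description only, and spans hold introns, so they are not transcript lengths.

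**Figure D4:**
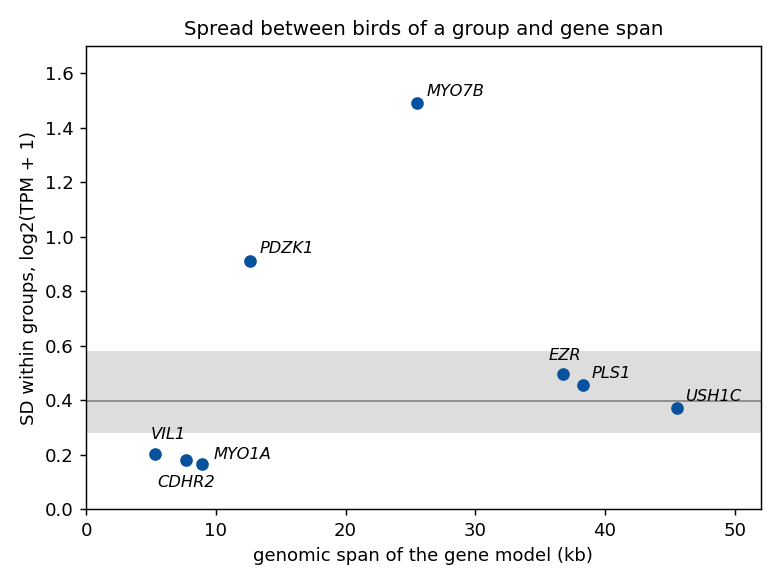
SD within groups on the log2(TPM + 1) scale against the genomic span of each gene model in kb. The grey band holds the middle of all tested genes, from 0.28 to 0.58, with a line at the median of 0.40. VIL1, CDHR2 and MYO1A lie under the band, MYO7B and PDZK1 above it.

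Within groups the 8 genes formed overlapping sets rather than a common axis. Of 28 pairs, 13 had a Pearson r above 0.5 over the 24 libraries with group means taken off, and the median r was 0.45. That level is not particular to the 8, since other genes had a median mean r with them of 0.446. The share of all gene pairs above 0.5 was not computed. The highest were MYO7B with USH1C at 0.93, MYO7B with EZR at 0.86, EZR with PDZK1 at 0.85 and MYO7B with PDZK1 at 0.84. VIL1 and MYO1A went together at 0.78, and MYO1A with CDHR2 at 0.64. VIL1 had an r of -0.13 with USH1C, -0.06 with MYO7B and 0.04 with PLS1, the other bundler. These values describe libraries that share the slope described above. The 10 named genes most like the 8 by mean correlation were PPP2CB, GGA1, SRPRA, TNPO3, PTK2B, CHMP1A, PLPP2, COPG1, RTCB and HGS, with a mean r from 0.680 to 0.695, where the median over 10177 genes with a symbol and at least 1 TPM was 0.446. COPG1, a subunit of the coat of Golgi vesicles, had the highest minimum among them, with r of at least 0.509 with each of the 8.

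**Figure D5:**
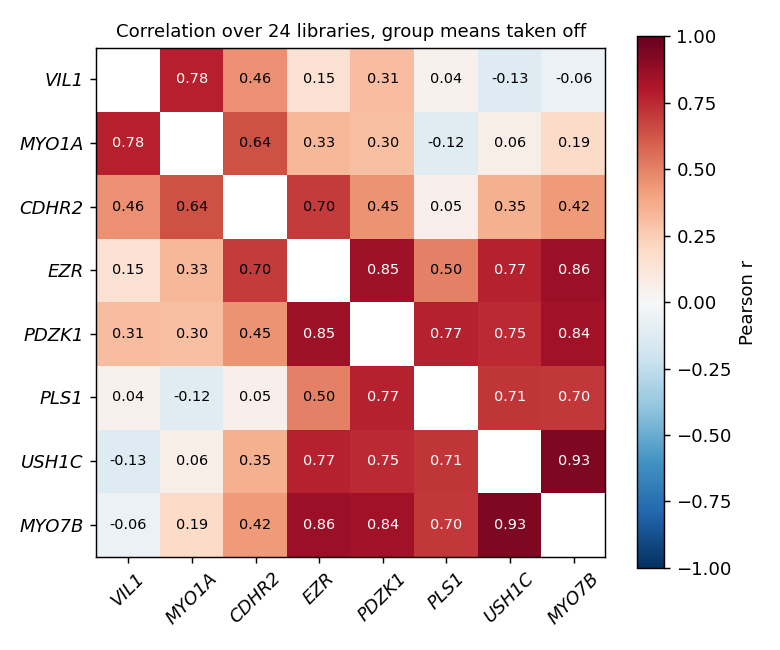
Pearson r between the 8 brush border genes over 24 libraries after the mean of each group was taken off log2(TPM + 1). EZR, PDZK1, PLS1, USH1C and MYO7B form a block with r from 0.50 to 0.93, and VIL1 and MYO1A share 0.78 but lie near 0 with USH1C and MYO7B.

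Other genes of the brush border, its traffic and its regulators gave a wider view. In 6 lists 72 genes were tested, and between LASI and LASN 2 were higher and 29 lower, or 40.3% lower against 28.9% of all genes. With the slope covariate 0 were higher and only 2, EPS8L3 and MYO5A, were lower (2.78% lower, against 4.96% of all genes). With LASN replicate 6 left out 0 were higher and 6 lower (8.33%, against 9.40% of all genes), and with LASI replicate 6 left out 2 were higher and 39 lower (54.2%, against 40.4%). Without LASI replicate 6, 4.56% of all genes were called higher. Of the genes named below as called between LASI and LASN, only MAL2, MYO5A and PDZD3 stayed called without LASN replicate 6. After median-ratio rescaling 5 were higher, where 12.0% of all genes were, and 14 lower (19.4%, as of all genes). Between HASI and HASN 0 were higher and 1 was lower, or 1.39% against 1.75% of all genes. There 0 were called after either rescaling, and 7 were lower with the slope covariate, or 9.72% against 10.7% of all genes. In each line comparison and in the interaction limma called 0 of the 72. An unadjusted p under 0.05 was reached by 3 between HASN and LASN, 3 between HASI and LASI and 1 in the interaction. Of all 13279 genes 1558, 993 and 606 reached it.

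Among partners of the tip complex and apical scaffolds, 0 of 9 tested genes were higher and 4 were lower between LASI and LASN (44.4% lower). Over all tested genes 28.9% were called lower and 2.18% higher, which holds for the list counts below too. The lists are short and were not tested as sets. ANKS4B, an adaptor of the complex, had its lowest, median and highest library at 73.0, 128 and 188 TPM in LASI and at 162, 178 and 208 TPM in LASN, and fell by 0.54 on the log2 scale (adjusted p = 0.0368). CALML4, the light chain that binds MYO7B in mammals, had medians of 440 TPM in LASI and 384 in LASN and a log2 difference of 0.26, not called (adjusted p = 0.186). SLC9A3, the sodium-proton exchanger of the brush border, had medians of 9.41 and 69.5 TPM and fell by 2.35 (adjusted p = 0.0337). PDZD3, a PDZ scaffold, fell by 0.58 (adjusted p = 0.0171).

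Of the relatives of the bundlers and cappers, 1 of 16 was higher and 5 were lower in LASI (31.25% lower, against 28.9% of all genes). EPS8, a capping and bundling protein of microvillus tips, had medians of 25.9 TPM in LASI and 87.3 in LASN and fell by 1.88 on the log2 scale (adjusted p = 0.0271). Its relative EPS8L3 fell by 0.39 in LASI (adjusted p = 0.0419) and by 0.63 in HASI (adjusted p = 0.0206), where it was the 1 gene of the 72 called. The bundler fascin, FSCN1, fell by 1.05 in LASI (adjusted p = 0.0219). The 1 higher gene was VILL, a villin relative, which like KRT18 below is named because of its values. Among ezrin relatives and their kinases 0 of 7 were higher and 1 was lower (14.3% lower). It was the FERM protein gene EPB41L5, which fell by 0.95 (adjusted p = 0.0320), while STK10, a kinase of ezrin, was at -0.57 and did not pass (adjusted p = 0.0738).

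Of other motors and terminal web genes 1 of 16 was higher, the keratin gene KRT18, and 8 were lower in LASI (50% lower, against 28.9% of all genes). The vesicle motor MYO5A had medians of 3.74 TPM in LASI and 27.1 in LASN and fell by 2.25 on the log2 scale (adjusted p = 0.0169), and the class I myosin MYO1D, with medians of 91.0 and 137 TPM, fell by 0.64 (adjusted p = 0.0198). Of 10 apical trafficking genes 0 were higher and 5 lower (50% lower), among them MAL2, which acts in apical transport (-0.49, adjusted p = 0.0234). Of 14 regulators of enterocyte genes 0 were higher and 6 lower (42.9% lower). HNF4G, a nuclear receptor gene, had medians of 18.7 TPM in LASI and 176 in LASN and fell by 2.72 (adjusted p = 0.0232). HNF4A (-1.20, adjusted p = 0.0923) and GATA4 (-0.70, adjusted p = 0.162) did not pass, and CDX2 was not analysed here. GATA4 was called lower once LASN replicate 6, which held it at 11.2 TPM, was left out.

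Markers of other cells were measured in the same libraries, and their part in the results was not tested. In LASN and LASI the summed TPM of 13 smooth muscle and stroma markers had a median of 4398 (2241 to 5578) and 5506 (2369 to 12083), and that of 11 crypt and proliferation markers 861 (414 to 1200) and 405 (282 to 814). Of the former 0 of 13 were called, and of the latter 0 of 11 were higher and 3 lower. For these and the marker counts below, 28.9% of all tested genes were called lower and 2.18% higher. The 23 enterocyte markers had summed medians of 63570 (45214 to 83271) and 63999 (46205 to 69297), with 0 higher and 4 lower among them. A few abundant genes weigh most in this sum, such as APOA1 with a median of 22160 TPM outside LASN replicate 6. Gene by gene the enterocyte markers had a median log2 fold change of -0.56, against -0.33 for all tested genes. The 6 tuft cell markers, a cell type that also carries a tuft of microvilli, summed to 107 (54.3 to 166) and 26.7 (10.9 to 103) TPM, and of 5 tested 0 were higher and 3 lower. Of 8 exocrine pancreas markers listed, 5 were in the table, and 3 of them, CPA1, CPB1 and CELA2A, were under 0.5 TPM in every library. The 5 summed to a median of 11.8 TPM (8.47 to 15.9) in LASN and 11.6 (9.47 to 15.3) in LASI. The 2 that were tested were not called.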

How the data were processed

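The deposited table gives 1 column per library in TPM, scaled by the authors so that each column sums to nearly the same total (999995 to 999999.7). The unit was read from the values, and 0 columns were unused. The submitters' processing notes name the build galGal6. Which aligner, counter, gene annotation and strand setting were used is not given in the sources used here. The table holds no counts, so depth is unknown and no counting interval is given.

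Genes reaching 0.5 TPM in 6 or more libraries were kept, and log2(TPM + 1) was fitted by limma 3.58.1 (R 4.3.3) over all 24 libraries, each group having its own mean, with an intensity trend, robust moderation and 20 residual degrees of freedom. The procedure was tested on simulated data. The span slope rests on 13258 genes, the 8 members and mitochondrially encoded genes left out, and its correlations were permuted within groups. Of 276 library pairs 0 were identical (r from 0.797 to 0.988). The labels give no batch or date. Planned promoter motif searches were not run, as no sequence was used here.

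Genes named are all brush border genes present, the 2 genes of each list with the smallest adjusted p in any comparison of 2 groups, ANKS4B, CALML4, EPS8, HNF4A and GATA4 whatever their result, and the 10 genes of highest mean correlation. Of the genes this rule names, 2 are not reported here. The members and lists were chosen with earlier results of these data known. Alternatives were 2 other filters, a pseudocount of 0.1, 2 rescalings, only the groups compared, the replicate block, a covariate (span slope, or level of 50 W-linked genes), a threshold of 0.10 and each library left out in turn.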

Additional observations from a re-analysis of the deposited data

Results flagged for a closer look

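PDZK1 in LASN replicate 1, at 271 TPM, lay far below the other 5 libraries of its group, the lowest of which was at 452 TPM. The gap was tested on the log2(TPM + 1) scale against Dixon's 95% critical value of 0.625 for 6 samples. It was the 1 library singled out among 32 groups of 6 (8 genes in 4 groups), and chance alone marks about 1 in 20 groups. The span slope of that library was -0.10 and its mitochondrially encoded share 18.2%, and their part in the value was not tested. Without it PDZK1 was at -1.59 between LASI and LASN (adjusted p = 0.0307).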

How the results depend on the processing

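The number of the 8 genes called was 0 in both line comparisons, HASI against HASN, the interaction and the average line effect under every alternative run, each left-out library included. Between LASI and LASN it was 2, or 1 after adding the slope covariate, and 1 to 3 over left-out libraries. For the average injection effect it was 2, and 1 when TPM was rescaled without mitochondrially encoded genes, with a range of 1 to 3. After median-ratio rescaling or with the slope covariate the 2 were MYO7B, lower, and USH1C, higher, and PDZK1 was not called. Of all genes 13.5% were then called higher and 19.9% lower after the rescaling. With the slope covariate 2.04% were higher and 15.6% lower. MYO7B was called lower between LASI and LASN and in the average injection effect under all alternatives. Libraries with the same replicate number had correlations of their deviations from -0.51 to 0.68, not over 0.1 in every pair, and 2, 2, 2 and 1 of 6 libraries correlated best with their own number, so the numbers were not taken as pairs. The replicate block gave the average injection effect of MYO7B the same value, -2.17, as it must when every group holds each replicate number. It called 3 genes between LASI and LASN, EZR added.

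Signs turned as follows, in log2 fold changes that were not called in the reported fit. Median-ratio rescaling gave CDHR2 0.084, PLS1 0.019 and USH1C 0.066 for HASN against LASN, CDHR2 0.0039 for HASI against LASI, VIL1 0.034, EZR 0.17, CDHR2 0.24 and USH1C 0.24 for HASI against HASN. It also gave VIL1 0.39, CDHR2 0.32, PLS1 0.065 and USH1C 0.18 for LASI against LASN, CDHR2 -0.080 for the interaction, VIL1 0.21, MYO1A 0.22, CDHR2 0.28, PLS1 0.22 and USH1C 0.21 for average injection, CDHR2 0.044 and USH1C 0.095 for average line. Rescaling without mitochondrially encoded genes gave MYO1A 0.015 and CDHR2 0.027 for HASI against LASI, EZR 0.083, CDHR2 0.15 and USH1C 0.16 for HASI against HASN, VIL1 0.082 and CDHR2 0.011 for LASI against LASN. It also gave VIL1 0.014, MYO1A 0.026, CDHR2 0.079, PLS1 0.025 and USH1C 0.019 for average injection, USH1C 0.012 for average line. The slope covariate gave PLS1 0.052 and USH1C 0.12 for HASN against LASN, USH1C -0.013 for HASI against LASI, EZR 0.077 and USH1C 0.13 for HASI against HASN. It also gave PLS1 0.10 and USH1C 0.26 for LASI against LASN, USH1C -0.14 for the interaction, EZR 0.0076, PLS1 0.18 and USH1C 0.19 for average injection, PDZK1 0.037, USH1C 0.054 and MYO7B 0.16 for average line. Leaving out LASI replicates 4 and 6 together gave MYO1A -0.057 for LASI against LASN, PLS1 -0.028 for average line.

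Left-out libraries turned signs within these ranges. For HASI against LASI the range was -0.048 to 0.092 for VIL1, -0.038 to 0.25 for EZR, -0.14 to 0.61 for PDZK1 and -0.052 to 0.14 for USH1C. For HASI against HASN the range was -0.28 to 0.051 for EZR, -0.10 to 0.015 for CDHR2, -0.062 to 0.24 for PLS1 and -0.20 to 0.071 for USH1C. For LASI against LASN the range was -0.027 to 0.089 for MYO1A. For average line the range was -0.079 to 0.090 for PLS1 and -0.12 to 0.015 for USH1C. The cause of these turns was not tested. Of 1880 refits of single genes 84 turned a sign, 17 ended a call and 7 made one, 5 for EZR and 2 for USH1C with its sign turned, and 1774 did none of these. Many of the refits could not move a log2 fold change, such as those with another filter or without a library of a group not compared. The count of unchanged refits is therefore no measure of stability. Depth is unknown, so how far it limits MYO7B at its lowest levels cannot be told.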
